A study of Mus musculus with 9 samples.

Results

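Glycosyltransferases build the sugar chains of glycoproteins and glycolipids, and 84 genes of these families were followed here out of 18193 genes with an array signal. They were taken by symbol: every gene whose symbol begins with B3gal, B4gal, B3gnt, Galnt, St3gal, St6gal, St8sia, Fut, Mgat, Gcnt or C1galt, of which there were 89, leaving out B4galt1, St6gal1, St3gal1, St3gal4 and Fut2. The rule uses the symbol and no measured value, although it was written with earlier results of these data known. The symbols also took in the pseudogene Fut4-ps1, the chaperone C1galt1c1, and enzymes that act mainly on glycolipids (B4galnt1, St3gal5, B4galt5 and B4galt6), so the set is wider than enzymes of glycoproteins alone.

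RNA came from the trachea of mice hemizygous for a KRT5-GFP transgene, in which the keratin 5 promoter, active in basal cells, drives green fluorescent protein. The tissue was digested, dissected and sorted for GFP and for binding of the isolectin GSI-A3B into 3 gates, with 3 samples per gate described as biological replicates. The GFP+ gate (GFP+, lectin+) and the lectin-only gate (GFP-, lectin+) are both labelled basal cells, and the columnar gate (GFP-, lectin-) is labelled columnar epithelium. RNA was isolated with a QIAGEN micro column kit, labelled with a Nugen biotin protocol and hybridised to 9 Affymetrix arrays. All 3 gates share the transgene and the digestion, and the sort itself is the only difference the labels name between them. Strain background, age and the number of animals behind a sample are not given in the sources used here.

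The sugar chains fall into a few classes. N-glycans are attached to asparagine and then branched by the Mgat enzymes, and mucin-type O-glycans start with an N-acetylgalactosamine (GalNAc) that a Galnt enzyme puts on serine or threonine and are built on by C1galt1 and the Gcnt enzymes. Both are then lengthened with galactose and N-acetylglucosamine (GlcNAc) and capped with fucose (Fut) or sialic acid (St3gal, St6gal, St6galnac and St8sia). In the airway, O-glycans make up much of the mass of secreted mucins, and glycan ends are what lectins such as the one used in the sort bind.

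Levels below are log2 signals as deposited, and a value of 3.56 was taken as background (the 95th percentile of 80 olfactory and vomeronasal receptor probe sets). Array medians lay between 4.91 and 5.16 except for lectin-only replicate 3 at 5.44, which also had the largest share of probe sets above background (73.0% against 65.3% to 66.3% on the others). Marker lists were compared with the gate labels. The 12 basal markers averaged 11.55 to 11.76 on the GFP+ arrays, 10.24 to 10.41 on the lectin-only arrays and 7.21 to 7.85 on the columnar arrays, and Krt5 itself read 6.71, 8.27 and 8.88 on the columnar arrays, so the columnar gate was low in basal marker RNA but not at background. The 11 ciliated markers averaged 8.03 to 8.48, 5.52 to 6.66 and 4.10 to 5.27 in the columnar, lectin-only and GFP+ gates. The 12 club and secretory markers averaged 12.65 to 12.82, 11.84 to 12.03 and 10.63 to 11.44 in the same order. The 17 leukocyte markers averaged 10.05 to 10.70 in the lectin-only gate against 5.86 to 6.65 in the columnar and 6.71 to 8.14 in the GFP+ gate. All 17 were above background on the lectin-only and the GFP+ arrays, and 14 to 16 on the columnar arrays. In samples of sorted cells like these, fewer cells of a type and less RNA per cell cannot be told apart.

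**Figure D1:**
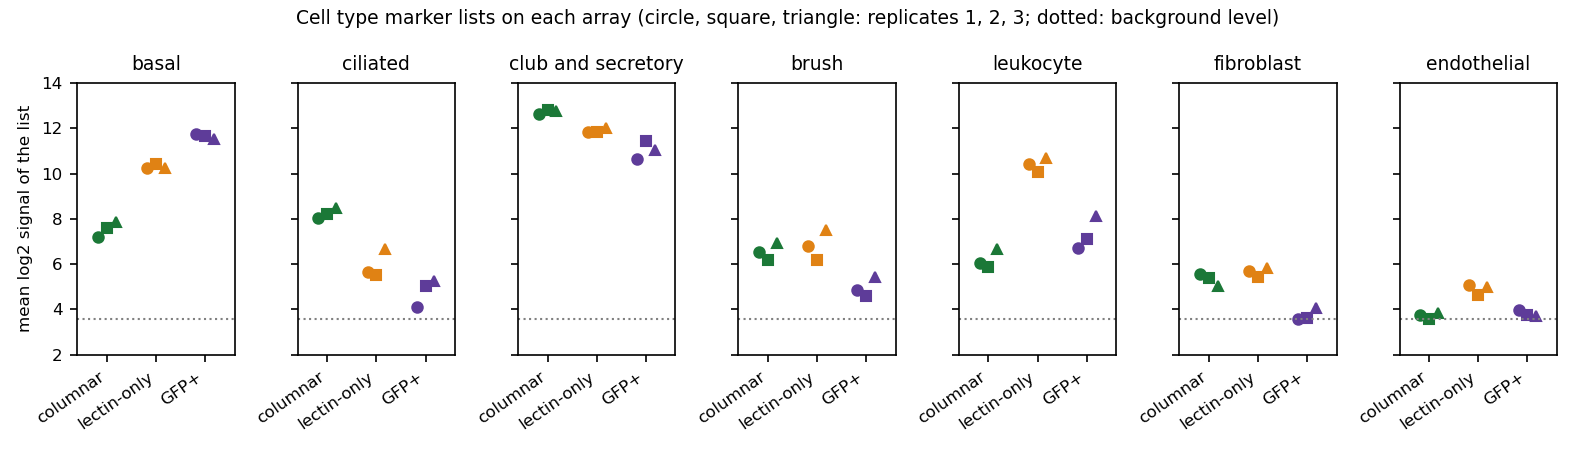
Mean log2 signal of 7 cell type marker lists (vertical axis) on each of the 9 arrays, by gate, with the replicate shown by the shape of the point and the background level as a dotted line. Basal markers lie highest in the GFP+ gate, ciliated and club or secretory markers highest in the columnar gate, and leukocyte markers highest in the lectin-only gate.

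Of the 84 genes, 17 differed between at least 1 pair of gates and 67 did not pass the test. A gene was called where the limma p-value, adjusted over all 18193 genes by the Benjamini-Hochberg method, was under 0.05 and the log2 difference was at least 1 in size. Between the GFP+ and columnar gates, 4 genes were higher and 9 lower in GFP+, which is 15.5% of the set beside 11.2% of all genes (5.88% higher and 5.33% lower). Between the lectin-only and columnar gates, 7 were higher and 2 lower in lectin-only, 10.7% beside 8.85% of all genes (6.47% higher and 2.38% lower). Between the GFP+ and lectin-only gates, 0 were higher and 4 lower in GFP+, 4.76% beside 3.74% (0.896% higher and 2.84% lower). There the unadjusted limma p was under 0.05 for 2 genes in the higher and 21 in the lower direction, beside 748 and 2033 of all 18193 genes. Taken over both directions, the shares of called genes lay near those of all genes, so the counts of calls are no result about the set as a whole. By direction they were less even: in GFP+ against columnar, 9 of 84 were lower beside 969 of 18193 genes, and 4 were higher beside 1069. The results lie in which enzymes moved, and how far.

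Median differences over the set were small. They were -0.13 for GFP+ minus columnar, 0.04 for lectin-only minus columnar and -0.29 for GFP+ minus lectin-only, beside -0.04, 0.07 and -0.10 over all genes. In the last comparison 64 of the 84 genes had a negative difference, beside 11670 of 18193 genes. Without lectin-only replicate 3 that median was -0.10 for the set and 0.02 for all genes. Centring each array on its median moved the medians of all genes to -0.12, -0.17 and 0.06 and those of the set to -0.21, -0.20 and -0.13. The share of higher calls among all called genes moved as well, from 73.1% to 58.2% for lectin-only minus columnar and from 24.0% to 35.9% for GFP+ minus lectin-only. A further quantile normalization gave 63.8% and 33.5%.

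The 17 genes fell into 3 main patterns. Fut4, St6galnac2, Mgat4a and B3gnt8 were higher in both lectin-binding gates than in the columnar gate. St3gal6, B4galt4, St8sia6, Fut9, Galnt6, Galnt5, B4galnt1, St3gal5 and Fut8 were lower in GFP+ than in columnar cells, and of these St3gal6 and B4galt4 were also lower in lectin-only cells. St8sia4, B3galt5 and B4galt5 were higher in lectin-only than in columnar cells without being called in GFP+ against columnar, and B4galt6 was called only in GFP+ against lectin-only. The 2 comparisons with the columnar gate share its 3 arrays.

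**Figure D2:**
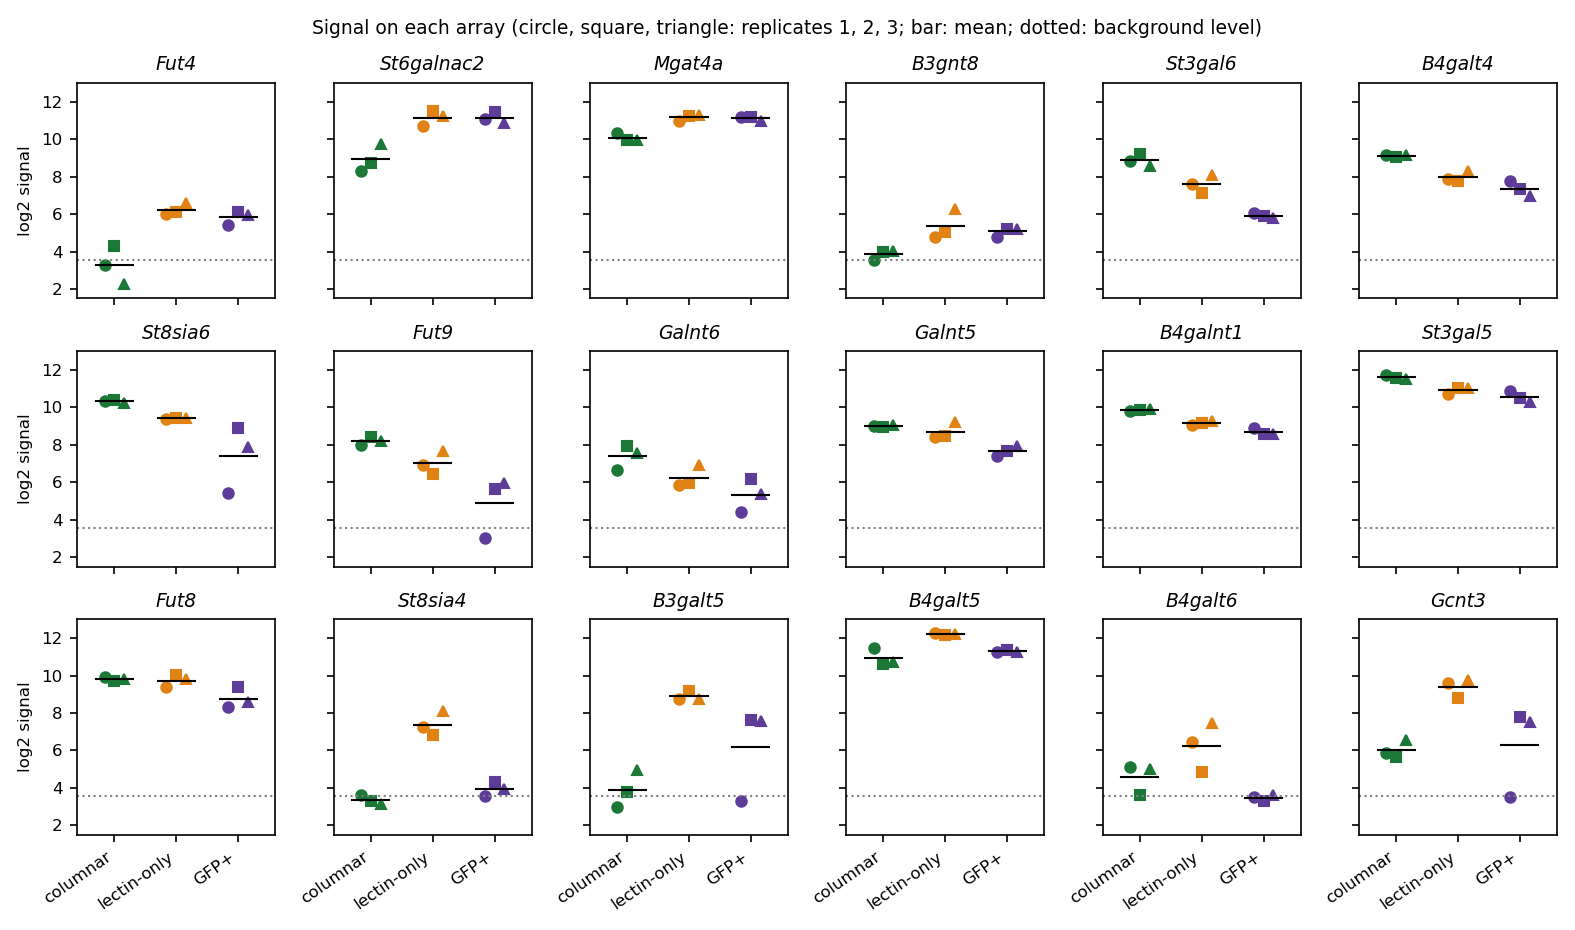
Log2 signal (vertical axis) of the 17 called genes and Gcnt3 on each of the 9 arrays, by gate, with the replicate as the shape of the point, the mean as a bar and the background level dotted. St8sia4 stands above 6.8 on every lectin-only array and at or below 4.30 on all the others, and GFP+ replicate 1 lies far below replicates 2 and 3 for B3galt5, Gcnt3, Fut9 and St8sia6.

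The start regions of 5 of these genes are shown because they stand for the 3 patterns: Fut4 and B3gnt8 for the first, St3gal6 and B4galt4 for the second and St8sia4 for the third. Each is the first 250 bases of a RefSeq promoter entry (GRCm38.p6), 5′ to 3′ on the gene's strand, and of several entries the one farthest 5′ was taken. Only for Fut4 does the region end where the annotated gene begins. The regions of B3gnt8, St3gal6, B4galt4 and St8sia4 run into the annotated gene, which begins at 25627600, 58524260, 38742220 and 95667717. Matches near their 3′ end can thus lie inside the gene, as both matches of St8sia4 do. The regions are Fut4 chr9:14752123-14752372 on the minus strand, B3gnt8 chr7:25627374-25627623 on the plus strand, St3gal6 chr16:58524254-58524503 on the minus strand, B4galt4 chr16:38742009-38742258 on the plus strand and St8sia4 chr1:95667595-95667844 on the minus strand. Capitals mark matches, on either strand, to the 6 short motifs searched, which were the GC box GGGCGG, the CCAAT box, the TATA box TATAAA, the Snail-type E-box CAGGTG, the AP-1 site TGACTCA and the forkhead site TGTTTAC.
Fut4: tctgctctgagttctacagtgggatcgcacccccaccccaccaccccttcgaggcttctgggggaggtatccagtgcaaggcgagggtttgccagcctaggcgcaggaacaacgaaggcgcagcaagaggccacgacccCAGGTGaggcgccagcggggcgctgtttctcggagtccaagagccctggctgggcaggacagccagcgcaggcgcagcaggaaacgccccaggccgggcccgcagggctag
B3gnt8: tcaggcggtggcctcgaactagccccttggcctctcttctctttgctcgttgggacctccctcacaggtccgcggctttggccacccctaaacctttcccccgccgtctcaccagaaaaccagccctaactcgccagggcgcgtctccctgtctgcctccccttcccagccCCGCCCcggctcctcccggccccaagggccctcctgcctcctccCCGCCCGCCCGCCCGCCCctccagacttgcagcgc
St3gal6: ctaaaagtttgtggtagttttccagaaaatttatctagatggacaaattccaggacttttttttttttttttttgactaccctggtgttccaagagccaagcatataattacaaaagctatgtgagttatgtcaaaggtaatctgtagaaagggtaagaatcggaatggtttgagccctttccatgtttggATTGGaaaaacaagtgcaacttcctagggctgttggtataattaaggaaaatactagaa
B4galt4: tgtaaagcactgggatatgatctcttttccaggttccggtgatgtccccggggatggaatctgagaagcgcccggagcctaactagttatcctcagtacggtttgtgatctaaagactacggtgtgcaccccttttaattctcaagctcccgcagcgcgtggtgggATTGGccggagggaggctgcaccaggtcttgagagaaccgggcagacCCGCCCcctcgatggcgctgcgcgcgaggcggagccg
St8sia4: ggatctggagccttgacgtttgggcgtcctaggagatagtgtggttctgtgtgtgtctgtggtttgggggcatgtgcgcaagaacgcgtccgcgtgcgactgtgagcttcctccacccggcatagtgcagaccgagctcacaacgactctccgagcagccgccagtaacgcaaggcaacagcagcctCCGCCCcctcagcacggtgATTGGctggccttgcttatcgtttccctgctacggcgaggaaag
The single capitalised motif of Fut4 is a Snail-type E-box, the 5 matches of B3gnt8 are GC boxes of which neighbouring ones overlap, St3gal6 has a CCAAT box read on the other strand, and B4galt4 and St8sia4 have both a GC box and a CCAAT box. RefSeq entries matched 61 of the 84 genes and 13 of the 17 called ones. Of those 13, 7 held a GC box, 6 a CCAAT box and 3 a Snail-type E-box (Fut4, Galnt5 and Galnt6), beside 32.7%, 33.8% and 17.2% of 32851 RefSeq promoters. None of the 13 held the TATA, AP-1 or forkhead letters, which 12.4%, 4.46% and 3.17% of promoters held. These matches describe letters only. They are not mapped binding sites, and of the pairs shown, Fut4 and B3gnt8 had no motif in common while St3gal6 and B4galt4 both held the CCAAT letters.

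Among the Galnt enzymes of the first O-glycosylation step, Galnt5 and Galnt6 were lower in GFP+ than in columnar cells. They were the 2 called of 18 Galnt genes, or 11.1%, beside 5.33% of all genes called lower, and 0 were higher. A negative difference was found for 15 of the 18, beside 9781 of 18193 genes, and the median was -0.43 beside -0.04. Against lectin-only the median was -0.41 and 1 gene was called lower. Lectin-only against columnar had no called Galnt gene by limma and a median of 0.01, and the unadjusted p was under 0.05 for 1 of the 18. These counts are for the brightest probe set per gene. With the largest-variance probe set, Galnt10, chosen after its values were seen, was called higher in lectin-only than in columnar (1.82 ± 0.46, adjusted p 0.0316). Its brightest probe set gave 0.42 (adjusted p 0.488).

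Galnt5 read 8.99, 8.95 and 9.06 on columnar replicates 1 to 3, 8.43, 8.46 and 9.21 on the lectin-only arrays and 7.39, 7.67 and 7.92 on the GFP+ arrays. All GFP+ arrays lay below every other array, while the lectin-only arrays overlapped the columnar ones. Galnt5 was lower in GFP+ than in columnar by 2.53-fold (log2 difference -1.34 ± 0.24 SE, adjusted p 0.00465), and this call held whichever array was left out. The difference from lectin-only was -1.04 ± 0.24 (adjusted p 0.0449), and that call was lost whichever of the 9 arrays was left out, with differences from -1.17 to -0.78 and adjusted p from 0.0553 to 0.169. With the arrays centred it was -0.88.

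Galnt6, another enzyme of the first step, read 6.65, 7.94 and 7.54 in the columnar gate, 5.86, 5.98 and 6.91 in the lectin-only gate and 4.39, 6.17 and 5.37 in the GFP+ gate. The GFP+ arrays all lay below the columnar arrays but overlapped the lectin-only ones. The fall from columnar to GFP+ was 4.18-fold (-2.06 ± 0.49, adjusted p 0.0198). The call ended when columnar replicate 2 (-1.78) or 3 (-1.98) or GFP+ replicate 1 (-1.61) or 3 (-2.10) was left out, with adjusted p of 0.0578 to 0.0704. The mean of all its probe sets gave -0.86, under the minimum difference.

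Galnt4 and Galnt12, chosen here after their values were seen, passed the adjusted p in GFP+ against columnar but stayed under the minimum difference, at -0.77 (adjusted p 0.0075) and -0.85 (adjusted p 0.022). Galnt12 was also at -0.93 against lectin-only (adjusted p 0.037). Galntl6, also chosen after its values were seen, had the widest spread of the group. It read 7.73, 7.01 and 7.56 in the columnar gate, 5.51, 2.57 and 7.98 in the lectin-only gate and 5.22, 4.08 and 5.62 in the GFP+ gate, and its difference of -2.46 ± 1.08 from columnar was not called (adjusted p 0.191).

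Genes for O-glycan cores and branches were not called in any comparison with the brightest probe set per gene. For these 8 genes, which include C1galt1, its chaperone C1galt1c1 and the branching enzymes Gcnt1 and Gcnt3, the median differences were -0.34, 0.17 and -0.37 for GFP+ minus columnar, lectin-only minus columnar and GFP+ minus lectin-only. By limma the unadjusted p was under 0.05 for 2, 1 and 3 of them, beside 4571, 3965 and 2781 of 18193 genes. All 8 had a negative difference in GFP+ against lectin-only, beside 11670 of 18193 genes. B3gnt6 and Gcnt7 were under background on every columnar and GFP+ array, so the signs of their differences carry little weight.

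Gcnt3, the branching enzyme typical of mucin-secreting tissues, had the largest difference of the group. It read 5.87, 5.62 and 6.58 in the columnar gate, 9.57, 8.81 and 9.76 in the lectin-only gate and 3.54, 7.79 and 7.52 in the GFP+ gate. Lectin-only arrays were above all the others, and GFP+ replicate 1 was at background while GFP+ replicates 2 and 3 were above every columnar array. The difference of lectin-only from columnar, 3.36 ± 0.94, just missed the threshold (adjusted p 0.0519). Without GFP+ replicate 1, which enters only through the shared spread, it was called (adjusted p 3.8e-04), as it was without GFP+ replicate 2 (0.0418). It was also called in a fit of only these gates (adjusted p 0.00115), with trend and robust eBayes (0.0377), among genes above background on at least 3 arrays (0.0447) and with the mean of all probe sets (1.71, adjusted p 0.0133). Without GFP+ replicate 1, GFP+ minus columnar went from 0.26 ± 0.94 (adjusted p 0.919) to 1.63 (adjusted p 0.0204). The 95% interval of GFP+ minus columnar over all arrays ran from -1.86 to 2.37. Gcnt1, chosen after its values were seen, was at -0.74 in GFP+ against columnar (adjusted p 0.028), under the minimum difference. In GFP+ against lectin-only its brightest probe set gave -0.67 (adjusted p 0.0932), while its largest-variance probe set was called lower (-1.02 ± 0.20, adjusted p 0.0213).

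Among the 10 Mgat genes of N-glycan branching, only Mgat4a was called in the fit of all 9 arrays, and the medians were -0.06, 0.01 and -0.09. The 1 called gene is 10% of the group in GFP+ and in lectin-only against columnar, beside 11.2% and 8.85% of all genes. Mgat4a adds one of the outer GlcNAc branches of N-glycans. It read 10.32, 9.97 and 9.96 in the columnar gate, 10.98, 11.23 and 11.27 in the lectin-only gate and 11.18, 11.17 and 10.98 in the GFP+ gate. Both lectin-binding gates lay above every columnar array and overlapped each other.

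Mgat4a was higher than in the columnar gate by 2.04-fold in GFP+ (1.03 ± 0.17, adjusted p 0.00343) and by 2.11-fold in lectin-only (1.07 ± 0.17, adjusted p 0.00368), close to the minimum difference in both. In GFP+ against columnar it fell just under that minimum without columnar replicate 2 (0.97), columnar replicate 3 (0.97), GFP+ replicate 1 (0.99) or GFP+ replicate 2 (1.00), with every adjusted p still under 0.05. A second probe set of Mgat4a gave 0.56 and 0.73, neither of them called (adjusted p 0.534 and 0.392), and centring the arrays gave 0.95 and 0.83. Mgat1, Mgat2, Mgat3, Mgat4b and Mgat5 were measured above background on every array and were not called. Of these, Mgat3 and Mgat5, chosen after their values were seen, were at -0.85 and -0.79 in GFP+ against columnar. Both just missed the adjusted p (0.0528 for each), and their GFP+ arrays lay below all columnar arrays.

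Of 16 genes that add galactose or GalNAc, B4galt4 and B4galnt1 were lower in GFP+ than in columnar, and the medians of the group were 0.14, 0.08 and -0.33. B3galt5 and B4galt5 were higher and B4galt4 lower in lectin-only against columnar, and B4galt6 was lower in GFP+ than in lectin-only. The called genes are 12.5%, 18.8% and 6.25% of the group in the 3 comparisons, beside 11.2%, 8.85% and 3.74% of all genes. B3galnt2, chosen after its values were seen, was at 0.82 in GFP+ against columnar (adjusted p 0.0245), under the minimum difference. Its largest-variance probe set was called higher there (1.06 ± 0.22, adjusted p 0.00878).

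B4galt4, which adds galactose to GlcNAc ends, read 9.14, 9.02 and 9.17 in the columnar gate, 7.89, 7.79 and 8.32 in the lectin-only gate and 7.77, 7.35 and 6.96 in the GFP+ gate. The 3 gates did not overlap. GFP+ was lower than columnar by 3.38-fold (-1.76 ± 0.23, adjusted p 8.64e-04), whichever array was left out, and lectin-only was lower by 2.16-fold (-1.11 ± 0.23, adjusted p 0.0138). Leaving out columnar replicate 3 (-1.08, adjusted p 0.0503) ended the lectin-only call, and so did leaving out lectin-only replicate 1 (-1.06, adjusted p 0.053). GFP+ minus lectin-only, at -0.64 ± 0.23, was not called (adjusted p 0.203).

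B4galnt1, which adds GalNAc to gangliosides, read 9.82, 9.87 and 9.89 in the columnar gate, 9.05, 9.16 and 9.28 in the lectin-only gate and 8.91, 8.58 and 8.60 in the GFP+ gate, again without overlap. It was 2.24-fold lower in GFP+ than in columnar (-1.16 ± 0.16, adjusted p 0.00114) in every fit that left out an array. A second probe set of B4galnt1 gave -0.08 ± 0.52 and was not called (adjusted p 0.962), and the mean of both gave -0.62 (adjusted p 0.213), so the fall rests on 1 of its 2 probe sets.

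B3galt5, which puts galactose on the ends of GlcNAc-bearing chains, had the largest difference of the set. It read 2.98, 3.80 and 4.95 in the columnar gate, 8.75, 9.17 and 8.76 in the lectin-only gate and 3.31, 7.60 and 7.57 in the GFP+ gate. The lectin-only arrays lay far above the columnar ones, and the GFP+ gate was split, with replicate 1 under background and replicates 2 and 3 above every columnar array. Lectin-only was higher than columnar by 31.6-fold as fitted (4.98 ± 1.01, adjusted p 0.0114), or by 4.79 on the log2 scale with the dim columnar array set to background. GFP+ minus columnar was 2.25 ± 1.01 and not called (adjusted p 0.204), and without GFP+ replicate 1 it was 3.68 and called (adjusted p 0.00163). Of its 3 other probe sets, 2 were called higher in lectin-only against columnar.

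B4galt5 and B4galt6 make lactosylceramide, the base of most gangliosides. B4galt5 read 11.45, 10.60 and 10.70 in the columnar gate, 12.25, 12.16 and 12.21 in the lectin-only gate and 11.24, 11.34 and 11.27 in the GFP+ gate. Lectin-only arrays were above all the others and the remaining gates overlapped. Lectin-only was higher than columnar by 2.45-fold (1.29 ± 0.23, adjusted p 0.00527), or by 0.86 on the log2 scale with the mean of its 2 probe sets, and GFP+ minus lectin-only was -0.93 ± 0.23 (adjusted p 0.0538).

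B4galt6 read 5.12, 3.61 and 5.03 in the columnar gate, 6.44, 4.84 and 7.45 in the lectin-only gate and 3.51, 3.32 and 3.59 in the GFP+ gate. The GFP+ arrays were near background and below all the others. GFP+ was lower than lectin-only by 6.82-fold as fitted (-2.77 ± 0.61, adjusted p 0.0352), a call that ended when lectin-only replicate 1 (-2.67) or 3 (-2.17) or any GFP+ replicate (-2.79, -2.69 and -2.83 for 1, 2 and 3) was left out, with adjusted p of 0.0889 to 0.11. Lectin-only minus columnar was 1.66 ± 0.61 (adjusted p 0.135) and was called without lectin-only replicate 2 (2.36, adjusted p 0.0155). The mean of the 7 brush cell markers moved along with B4galt6 across arrays, at 6.55, 6.17 and 6.94 in the columnar gate, 6.80, 6.17 and 7.52 in the lectin-only gate and 4.87, 4.60 and 5.44 in the GFP+ gate. Between 5 and 7 of those markers were above background on each array. Brush was 1 of 7 lists compared. In the lectin-only gate 3 other lists also had replicate 2 lowest and replicate 3, the array with the raised median, highest. These were leukocyte (10.43, 10.05 and 10.70), fibroblast (5.67, 5.44 and 5.83) and ciliated (5.66, 5.52 and 6.66). The part of any of these cells in the B4galt6 difference was not tested.

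Of the 7 other B3gnt genes, which lengthen chains with GlcNAc, B3gnt8 was higher in both lectin-binding gates than in the columnar gate, and the medians of the group were 0.30, 0.10 and 0.13. The 1 called gene is 14.3% of the group in GFP+ and in lectin-only against columnar, beside 11.2% and 8.85% of all genes. B3gnt8 extends repeats of galactose and GlcNAc on N-glycans. It read 3.57, 3.95 and 4.03 in the columnar gate, 4.77, 5.07 and 6.26 in the lectin-only gate and 4.77, 5.22 and 5.23 in the GFP+ gate. The columnar arrays were close to background and below all 6 lectin-binding arrays.

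The differences of B3gnt8 were 1.22 ± 0.35 for GFP+ (2.34-fold, adjusted p 0.0482) and 1.51 ± 0.35 for lectin-only (2.86-fold, adjusted p 0.0235). Neither call was firm. The GFP+ call ended when any columnar replicate (1.08, 1.28 and 1.31 for 1, 2 and 3), lectin-only replicate 2 (1.22) or any GFP+ replicate (1.38, 1.15 and 1.15) was left out, with adjusted p of 0.0565 to 0.149. The lectin-only call was lost when columnar replicate 1 (1.37), 2 (1.57) or 3 (1.60) was left out, with adjusted p of 0.0507 to 0.0845. B3gnt7, chosen after its values were seen, passed the adjusted p in the opposite direction under the minimum difference, at -0.99 in GFP+ (adjusted p 0.014) and -0.82 in lectin-only (adjusted p 0.041) against columnar.

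The fucosyltransferases moved in opposite directions. Of 8 Fut genes, Fut4 was higher and Fut8 and Fut9 were lower in GFP+ than in columnar cells. These are 37.5% of this small group, beside 11.2% of all genes. The medians of the group were -0.15, -0.11 and -0.34 in the 3 comparisons. Fut4 and Fut9 both add fucose to GlcNAc within Lewis-type chain ends, and Fut8 adds the fucose at the core of N-glycans.

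Fut4 read 3.28, 4.28 and 2.26 in the columnar gate, 6.0, 6.12 and 6.58 in the lectin-only gate and 5.42, 6.12 and 5.94 in the GFP+ gate. All lectin-binding arrays lay above all columnar arrays, of which 2 were under background. Fut4 was higher than in columnar by 5.86-fold in GFP+ (2.55 ± 0.44, adjusted p 0.00372) and by 7.78-fold in lectin-only (2.96 ± 0.44, adjusted p 0.00238) as fitted. With the dim arrays set to background the differences were 2.03 and 2.44 on the log2 scale. Both calls held without any one array and under every other setting tried, although a second probe set of Fut4 was not called. The probe set of the pseudogene Fut4-ps1 was under background on every array. GFP+ minus lectin-only was -0.41 ± 0.44 (adjusted p 0.766, 95% interval -1.40 to 0.58).

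Fut9 read 7.97, 8.40 and 8.18 in the columnar gate, 6.91, 6.44 and 7.67 in the lectin-only gate and 3.04, 5.64 and 5.98 in the GFP+ gate. The 3 gates did not overlap, and GFP+ replicate 1 was under background. Fut9 was lower in GFP+ than in columnar by 9.81-fold as fitted (-3.29 ± 0.67, adjusted p 0.0088), and by 3.12 on the log2 scale with the dim array set to background. This call held without any one array, with differences from -3.84 to -2.37, the smaller fall being without GFP+ replicate 1. Lectin-only minus columnar was -1.17 ± 0.67 (adjusted p 0.372) and was called without GFP+ replicate 1 (-1.17, adjusted p 0.0466). GFP+ minus lectin-only was -2.12 ± 0.67 (adjusted p 0.13).

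Fut8 read 9.94, 9.71 and 9.80 in the columnar gate, 9.38, 10.01 and 9.80 in the lectin-only gate and 8.30, 9.41 and 8.57 in the GFP+ gate. GFP+ arrays lay below the columnar arrays, and GFP+ replicate 2 overlapped the lectin-only gate. From columnar to GFP+ it fell by 2.09-fold (-1.06 ± 0.29, adjusted p 0.0367), a call lost without GFP+ replicate 1 (-0.83) or 3 (-0.97), and equally without any of the columnar replicates 1 (-1.0), 2 (-1.12) and 3 (-1.07). The mean of all probe sets of Fut8 gave -0.56 (adjusted p 0.0987), and a fit of only these gates gave an adjusted p of 0.0555. GFP+ minus lectin-only was -0.97 (adjusted p 0.11) and was called without GFP+ replicate 2 (-1.30, adjusted p 0.0256).

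Sialyltransferases also moved both ways. Of 17 genes, St6galnac2 was higher and St3gal6, St3gal5 and St8sia6 were lower in GFP+ than in columnar cells. In lectin-only against columnar, St6galnac2 and St8sia4 were higher and St3gal6 was lower. In GFP+ against lectin-only, St3gal6 and St8sia4 were lower, and the medians of the group were -0.12, 0.06 and -0.24. The called genes are 23.5%, 17.6% and 11.8% of the group, beside 11.2%, 8.85% and 3.74% of all genes.

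St6galnac2, which adds sialic acid to the GalNAc at the base of O-glycans, read 8.32, 8.73 and 9.72 in the columnar gate, 10.73, 11.50 and 11.21 in the lectin-only gate and 11.08, 11.47 and 10.88 in the GFP+ gate. The lectin-binding arrays lay together above all columnar arrays. It was higher than in columnar by 4.66-fold in GFP+ (2.22 ± 0.36, adjusted p 0.00243) and by 4.67-fold in lectin-only (2.22 ± 0.36, adjusted p 0.00337). Both calls held under every setting and without any one array. GFP+ minus lectin-only was 0.00 with a 95% interval of -0.80 to 0.80 (adjusted p 0.998). A second probe set of St6galnac2 gave 1.14 for GFP+ minus columnar, 0.80 for lectin-only minus columnar and 0.34 for GFP+ minus lectin-only. On that probe set GFP+ was called higher than columnar, but lectin-only was not.

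St3gal6, which caps galactose ends with sialic acid, read 8.85, 9.22 and 8.57 in the columnar gate, 7.62, 7.11 and 8.07 in the lectin-only gate and 6.04, 5.88 and 5.79 in the GFP+ gate. The 3 gates did not overlap, with the columnar gate highest and the GFP+ gate lowest. GFP+ was lower than columnar by 7.86-fold (-2.97 ± 0.26, adjusted p 9.19e-05) and lower than lectin-only by 3.24-fold (-1.70 ± 0.26, adjusted p 0.00805), and lectin-only was lower than columnar by 2.42-fold (-1.28 ± 0.26, adjusted p 0.0125). With the brightest probe set per gene, it was the 1 gene of the 84 called in all 3 comparisons, and the calls held without any one array. Of its 4 other probe sets, 3 were called lower in GFP+ against columnar. The mean of all 5 gave -0.77 for lectin-only minus columnar, which was not called.

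St8sia4, which builds polysialic acid, stood high in the lectin-only gate alone. It read 3.64, 3.28 and 3.15 in the columnar gate, 7.23, 6.80 and 8.11 in the lectin-only gate and 3.59, 4.30 and 3.96 in the GFP+ gate. The lectin-only arrays lay far above the other 6, which were near background. Lectin-only was higher than columnar by 16.2-fold as fitted (4.02 ± 0.33, adjusted p 1.13e-04), or by 3.79 on the log2 scale with dim arrays set to background, and GFP+ was lower than lectin-only by 10.8-fold (-3.43 ± 0.33, adjusted p 6.51e-04). Both calls held in every fit, although a second probe set of St8sia4 was not called. Leukocyte marker RNA moved with it: 15 of the 17 leukocyte markers were called higher in lectin-only against columnar and 13 lower in GFP+ against lectin-only. Of all genes, 6.47% and 2.84% were so called. Ptprc, the leukocyte surface phosphatase CD45, read 4.36, 2.86 and 2.53 in the columnar gate, 8.85, 8.29 and 9.72 in the lectin-only gate and 5.11, 4.73 and 6.38 in the GFP+ gate. Summed over the list on a linear scale, leukocyte marker signal was 16056 to 16815, 40870 to 56900 and 6855 to 12408 in the 3 gates in that order. Endothelial markers were also highest in the lectin-only gate: the 10 averaged 3.56 to 3.86, 4.66 to 5.09 and 3.70 to 3.99, with 4 called higher in lectin-only against columnar and 3 lower in GFP+ against lectin-only. The part of both marker lists in the level of St8sia4, and of B3galt5, B4galt5 and Gcnt3, was not tested.

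St8sia6, which adds sialic acid to sialic acid on O-glycans, read 10.32, 10.41 and 10.23 in the columnar gate, 9.38, 9.43 and 9.44 in the lectin-only gate and 5.40, 8.91 and 7.86 in the GFP+ gate. The gates did not overlap, and the GFP+ arrays spanned more than those of both other gates. St8sia6 was 7.65-fold lower in GFP+ than in columnar (-2.94 ± 0.69, adjusted p 0.019). The call ended when columnar replicate 1 (-2.93), 2 (-2.89) or 3 (-2.98) was left out, with adjusted p of 0.0505 to 0.0552, and in a fit of only these gates (adjusted p 0.0589). GFP+ minus lectin-only was -2.03 ± 0.69 (adjusted p 0.166) and was called without GFP+ replicate 2 (-2.79, adjusted p 0.0388).

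St3gal5, the enzyme that makes the simplest ganglioside, read 11.74, 11.59 and 11.51 in the columnar gate, 10.72, 11.04 and 11.06 in the lectin-only gate and 10.88, 10.51 and 10.30 in the GFP+ gate. The columnar arrays were above all the others. GFP+ was lower than columnar by 2.07-fold (-1.05 ± 0.20, adjusted p 0.00577), and fell under the minimum difference without columnar replicate 1 (-0.99) or GFP+ replicate 3 (-0.92). Lectin-only minus columnar was -0.68 (adjusted p 0.0599).

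St3gal2, chosen after its values were seen, depended on the probe set. Its brightest probe set read 7.18, 6.93 and 7.26 in the columnar gate, 7.44, 6.68 and 7.92 in the lectin-only gate and 8.21, 7.36 and 8.33 in the GFP+ gate, and was not called (GFP+ minus columnar 0.84 ± 0.34, adjusted p 0.16). Another probe set, the one with the largest variance, read 5.36, 5.38 and 6.25 in the columnar gate, 6.62, 6.92 and 6.90 in the lectin-only gate and 8.67, 8.19 and 7.91 in the GFP+ gate. On that probe set the 3 gates did not overlap and St3gal2 was called in all 3 comparisons: 2.59 ± 0.30 for GFP+ minus columnar (adjusted p 3.24e-04), 1.15 ± 0.30 for lectin-only minus columnar (adjusted p 0.0373) and 1.44 ± 0.30 for GFP+ minus lectin-only (adjusted p 0.0287). St3gal2 caps galactose with sialic acid on O-glycans and glycolipids.

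**Figure D3:**
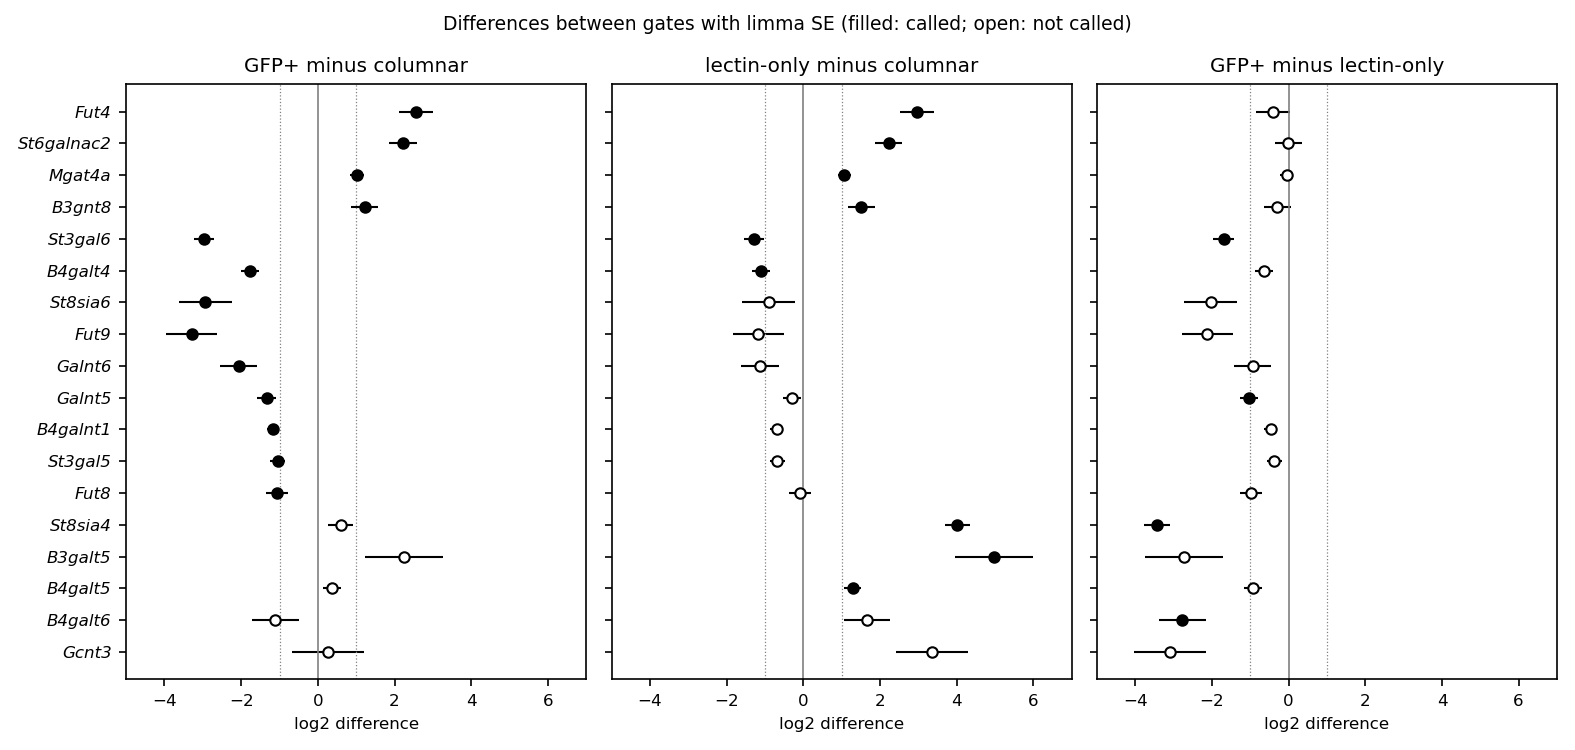
Log2 differences between gates (horizontal axis) with limma SE for the 17 called genes and Gcnt3, with filled points where the gene was called and dotted lines at the minimum difference of 1. Fut4 and St6galnac2 lie to the right in both comparisons with the columnar gate and near 0 between the lectin-binding gates, while St3gal6 lies to the left in all 3.

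Across the set, arrays of the GFP+ and columnar gates did not overlap for 38 of the 84 genes, beside 6111 of all 18193 genes (33.6%). For lectin-only against columnar this held for 25 of the 84, beside 4478 of 18193 (24.6%). For GFP+ against lectin-only it held for 23 of the 84, beside 3377 of 18193 (18.6%). Levels differed in reach: 49 genes were above background on all 9 arrays, 23 on some, and 12 on none. The 12 were Fut4-ps1, B3galt1, B4galnt2, B3gnt9, Mgat4c, Mgat4d, Mgat4e, Galnt14, Galntl5, St6gal2, St6galnac5 and St8sia1, for which these arrays give only an upper bound. Columnar, lectin-only and GFP+ gates had 23, 17 and 23 genes under background on all 3 of their arrays. For lectin-only this included the array with the raised median, on which 66 of the 84 genes were above background against 56 to 59 on the others.

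**Figure D4:**
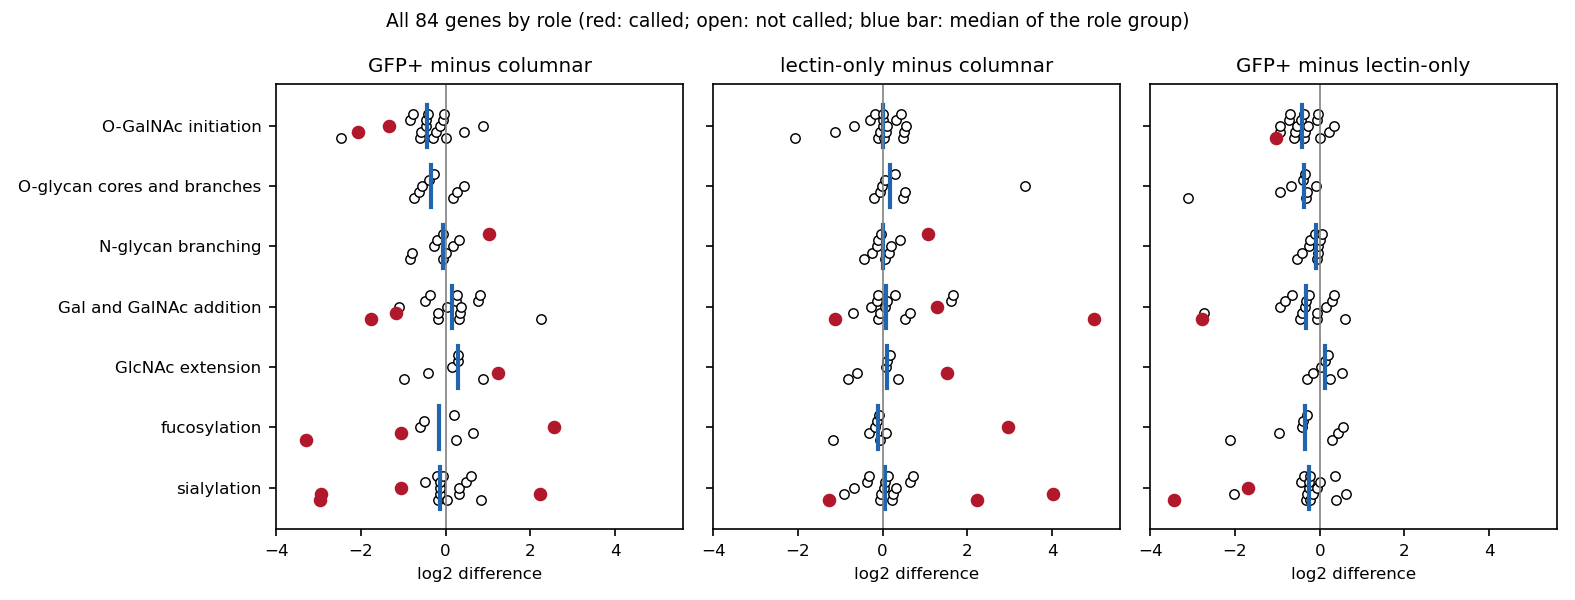
Log2 differences between gates (horizontal axis) for all 84 genes in 7 role groups, with called genes in red and the median of each group as a blue bar. The Galnt group has a median of -0.43 in GFP+ minus columnar and 0.01 in lectin-only minus columnar, and called genes of the fucosylation and sialylation groups lie on both sides of 0.

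Marker RNA of 4 other cell types moved with the genes that were lower in GFP+. All 11 measured ciliated markers and 6 of 12 club and secretory markers were called lower in GFP+ against columnar. So were 4 of 7 brush and 4 of 10 fibroblast markers, and against lectin-only 3 of 7 brush and 5 of 10 fibroblast markers were lower in GFP+. Of all genes, 5.33% were called lower in GFP+ against columnar and 2.84% against lectin-only. The fibroblast markers averaged 5.02 to 5.55 in the columnar, 5.44 to 5.83 in the lectin-only and 3.58 to 4.05 in the GFP+ gate. On GFP+ replicate 1, where Fut9, St8sia6, Galnt6, B3galt5 and Gcnt3 were lowest within the gate, the ciliated and club lists were also lowest of the gate, at 4.10 against 5.03 and 5.27 for ciliated and 10.63 against up to 11.44 for club and secretory markers. The leukocyte list (6.71 against 7.12 and 8.14) and the fibroblast list (3.58 against 3.63 and 4.05) were lowest there too. The basal, brush and endothelial lists were not. The part of these cells in the differences was not tested.

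The rest of the glycosylation machinery was followed through 8 lists with 125 of 138 entries measured. Over all of them, 5 were called higher and 11 lower in GFP+ against columnar, 4 higher and 6 lower in lectin-only against columnar and 2 higher and 7 lower in GFP+ against lectin-only. These are 12.8%, 8.0% and 7.2% of the 125, beside 11.2%, 8.85% and 3.74% of all genes, so the counts against the columnar gate lie near the background. None of the 28 measured genes that assemble the N-glycan precursor and transfer it to protein was called by limma in any comparison, with medians of -0.32, -0.17 and -0.10 and an unadjusted p under 0.05 for 5, 2 and 1 of them.

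Among 15 trimming enzymes, the Golgi mannosidases Man2a1 and Man2a2, which clear the way for complex N-glycan branches, were higher in GFP+ than in columnar, by 1.18 ± 0.26 (adjusted p 0.0148) and 1.91 ± 0.28 (adjusted p 0.00146). Man2a2 read 9.04, 9.44 and 9.85 in the columnar gate, 10.32, 9.61 and 10.51 in the lectin-only gate and 11.44, 11.18 and 11.45 in the GFP+ gate. The GFP+ arrays of Man2a2 lay above all the others, and GFP+ minus lectin-only was 1.21 ± 0.28 (adjusted p 0.0448). That last call held only without columnar replicate 1 or 3 or lectin-only replicate 3, and the 9 fits that left out an array gave 0.94 to 1.39. The mean of all probe sets of Man2a2 gave 0.95 against columnar and 0.49 against lectin-only, neither called. Man2a1 was also higher in lectin-only than in columnar (1.16 ± 0.26, adjusted p 0.0203). Its calls were lost without columnar replicate 2 (0.91 in GFP+ and 0.89 in lectin-only against columnar), GFP+ replicate 3 (1.07 in GFP+), and columnar replicate 3 (1.19) or lectin-only replicate 3 (1.05) in lectin-only.

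Of 26 measured genes for sugar donors and their transport, 3 were lower in GFP+ than in columnar, all without a call in the other direction. Gfpt2, which starts the making of the GlcNAc donor, read 9.20, 9.53 and 9.44 in the columnar gate, 7.85, 7.85 and 8.76 in the lectin-only gate and 4.94, 6.11 and 5.66 in the GFP+ gate. The gates did not overlap, and GFP+ was lower than columnar by 14.1-fold (-3.82 ± 0.33, adjusted p 8.23e-05) and than lectin-only by 5.99-fold (-2.58 ± 0.33, adjusted p 0.00331). Pgm3, of the same route, was at -1.56 ± 0.25 (adjusted p 0.00244) in GFP+ against columnar and Slc35c1, the Golgi carrier of the fucose donor, was at -1.18 ± 0.25 (adjusted p 0.0102). These calls held without any one array. Gfpt2 was also lower in lectin-only than in columnar (-1.24 ± 0.33, adjusted p 0.0439), a call that held only without lectin-only replicate 3 or GFP+ replicate 1 or 2 (-1.54 to -1.09 over the 9 fits).

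Lfng, the fringe enzyme that lengthens O-fucose on Notch receptors, was the 1 called gene of 17 in the O-mannose and O-fucose list. It read 6.35, 6.58 and 6.82 in the columnar gate, 6.94, 6.79 and 7.28 in the lectin-only gate and 8.97, 8.20 and 8.43 in the GFP+ gate. The GFP+ arrays were above all the others, by 1.95 ± 0.24 over columnar (adjusted p 5.38e-04) and 1.53 ± 0.24 over lectin-only (adjusted p 0.00832), without any one array too. The mean of its probe sets gave 0.64 over lectin-only, which was not called (adjusted p 0.163). Of 10 sulfotransferases, Chst9 was higher in GFP+ than in columnar (1.10 ± 0.28, adjusted p 0.0259) and Chst7 in lectin-only than in columnar (1.80 ± 0.45, adjusted p 0.0319). Of 11 sialidases and other glycosidases, Neu3, a sialidase of gangliosides, was higher in GFP+ than in columnar (1.09 ± 0.27, adjusted p 0.0235). The Chst9 call ended without any columnar replicate or GFP+ replicate 1 or 2 (0.93 to 1.26), the Chst7 call without columnar replicate 1 or 2 or lectin-only replicate 1 or 3 (1.48 to 2.25), and the Neu3 call without columnar replicate 1 or any GFP+ replicate (0.77 to 1.28).

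Of 13 measured mucin-like acceptors of O-glycans, 6 were lower and 0 higher in GFP+ than in columnar, beside 5.33% of all genes called lower. Muc5b and Muc5ac, the main secreted airway mucins, which also stand in the club and secretory marker list, were lower by 12.4-fold (-3.64 ± 0.42, adjusted p 3.56e-04) and 7.98-fold (-3.00 ± 0.32, adjusted p 2.33e-04), and Podxl by 7.96-fold (-2.99 ± 0.31, adjusted p 1.90e-04). Muc5b read 13.07, 13.19 and 13.14 in the columnar gate, 11.36, 11.48 and 11.36 in the lectin-only gate and 8.63, 10.65 and 9.20 in the GFP+ gate, without overlap. In lectin-only against columnar, Muc15 (4.84 ± 0.97, adjusted p 0.0107) and Muc13 (3.04 ± 0.82, adjusted p 0.0447), both membrane mucins, were higher. In the same comparison 3 acceptors were lower: Muc5b (-1.73 ± 0.42, adjusted p 0.0263), Muc5ac (-1.22 ± 0.32, adjusted p 0.0392) and Podxl (-1.13 ± 0.31, adjusted p 0.0458). Muc15 read 2.97, 2.05 and 2.72 in the columnar gate, 7.88, 8.09 and 6.28 in the lectin-only gate and 3.10, 7.11 and 7.10 in the GFP+ gate, so GFP+ replicate 1 stood apart from replicates 2 and 3 as it did for B3galt5 and Gcnt3. The columnar arrays of Muc15 were all under background. With values under background set to it, lectin-only minus columnar was 3.86 for Muc15 and not called (adjusted p 0.0777). The Muc13 call held only without columnar replicate 3 or GFP+ replicate 1 or 3 (2.55 to 3.69), and the Muc5b call in lectin-only ended whichever columnar or lectin-only array was left out (-1.77 to -1.70). Without any columnar replicate, the calls of Muc5ac and Podxl ended too, as they did without lectin-only replicate 1, 2 or GFP+ replicate 3 for Muc5ac (-1.53 to -0.98) and without lectin-only replicate 1, 3 or GFP+ replicate 2 for Podxl (-1.31 to -0.97).

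In GFP+ against lectin-only, Podxl (-1.86 ± 0.31, adjusted p 0.0103), Muc16 (-1.89 ± 0.39, adjusted p 0.0289) and Muc5b (-1.90 ± 0.42, adjusted p 0.0352) were among 4 acceptors called lower, and 0 were higher. The 4 are 30.8% of the 13 measured, beside 2.84% of all genes called lower. The Podxl call held without any one array. The Muc16 call ended without any lectin-only replicate or GFP+ replicate 3 (-2.34 to -1.38), and the Muc5b call held only without GFP+ replicate 2 (-2.48 to -1.47).

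Of the 5 glycosyltransferases that were left out of the set, St6gal1 and Fut2 were lower in both lectin-binding gates than in the columnar gate. St6gal1, which adds sialic acid to N-glycan ends, had differences of -4.39 ± 0.40 in GFP+ (adjusted p 1.11e-04) and -2.74 ± 0.40 in lectin-only (adjusted p 0.00226), and Fut2, which adds the fucose of the H antigen, -3.36 ± 0.31 (adjusted p 1.19e-04) and -1.72 ± 0.31 (adjusted p 0.00672). For both, as for the called genes St3gal6, B4galt4, Fut9, St8sia6 and B4galnt1, the 3 gates did not overlap and stood in the order columnar, lectin-only and GFP+ from high to low. Galnt4, which was not called, stood in this order without overlap too. The share of all genes in this order was not counted. In GFP+ against lectin-only, Fut2 (-1.64 ± 0.31, adjusted p 0.0194) and St3gal4 (-1.37 ± 0.28, adjusted p 0.0243) were lower. The Fut2 call ended without replicate 1 or 3 of either gate (-1.92 to -1.39), and the St3gal4 call without these or lectin-only replicate 2 (-1.5 to -1.15).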

How the data were processed

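The authors deposited log2 signals, 1 per probe set and array, and the submitters' processing notes name RMA as the method. Its software version and any filter are not given in the sources used here. The members and the gene lists were chosen with earlier results of these data known. Of 45101 probe sets, 64 were controls and 34945 had 1 symbol in the platform annotation. A gene was represented by its brightest probe set (mean of 9 arrays), for 18193 genes in all. There were several to choose from for 9010 genes and 55 of the 84 members. Gate means were fitted to all 9 arrays in R 4.3.3 with lmFit and eBayes of limma 3.58.1 (6 residual and 3.46 prior degrees of freedom), and p-values were adjusted over all genes per comparison by the Benjamini-Hochberg method. All adjusted p-values are from limma. A gene was called at an adjusted p under 0.05 and a log2 difference of at least 1. The method was tested on simulated data. The median SE was 0.24 over all genes and 0.23 over the members, and the number of arrays limits the precision. By the planned rule, named genes were those called in any comparison, the largest difference of a role group without a call, and up to 3 called genes per list and comparison. Genes marked as chosen after their values were seen were added outside that rule. Whether the replicate numbers pair samples was checked: 4 of 9 same-number pairs of arrays had deviations correlated above 0.1, up to 0.33. Of the 9 arrays, 7 correlated best with one of their own number, so some pairing is possible. The labels do not say what a number shares, so the main fit used no block and a block was tried as an alternative. Other normalizations, probe set choices, filters and fits were tried as alternatives, as was leaving out each array.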

Additional observations from a re-analysis of the deposited data

How the results depend on the processing

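Of 26 called results of members, 16 were kept without any one array, 14 under all other settings and 12 under both; no difference reversed. Without one array, members called ranged over 2 to 4 higher (2 without columnar replicate 2 or 3) and 6 to 10 lower in GFP+ against columnar, 6 to 8 and 1 to 3 (1 when columnar replicate 3 or lectin-only replicate 1 was left out) in lectin-only against columnar, and 0 and 2 to 5 (2 without lectin-only replicate 1 or 3, or GFP+ replicate 1 or 3) in GFP+ against lectin-only. The pathway lists ranged over 3 to 6 and 10 to 14, 1 to 4 and 2 to 6, and 1 to 2 and 3 to 7. In lectin-only against columnar, members called lower were 1 with the mean of all probe sets and 4 with no minimum difference. In GFP+ against lectin-only, 1 member (St3gal2) was higher with the largest-variance probe set, and 2 were lower with values under background set to it, an alternative chosen after seeing the data. With that setting the pathway lists had 3 higher in GFP+ against columnar, 0 higher and 2 lower in lectin-only against columnar, and 1 higher and 2 lower in GFP+ against lectin-only. With no minimum difference they had 17 lower in GFP+ against columnar, and in GFP+ against lectin-only 0 were higher with the mean of probe sets and 1 with the largest-variance probe set or only the 2 gates in the fit. The cause of these moves was not tested. With the replicate number as a block, members called were 4 higher and 9 lower, 9 and 2, and 0 and 4 in the 3 comparisons, with B4galt6 (adjusted p 0.0298) and Gcnt3 (adjusted p 0.0366) added in lectin-only against columnar; 7 of 9 arrays correlated best with one of their own number. Genes near background and the 3 arrays per gate limit what could be called.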
